A study of Homo sapiens with 16 samples.

Results

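Distal HIF peaks that carried the consensus of the transcription factor AP-1 were examined in peak lists of 16 libraries. A peak was taken when its centre lay more than 1000 bp and at most 50000 bp from every start site of a protein-coding transcript (GENCODE, GRCh37) and when its central 200 bp held TGACTCA or TGAGTCA, which are each other's reverse complement. Of 23398 peaks, 23369 lay on chromosomes 1 to 22, X and Y, 7519 of these were distal by that definition, and 980 distal peaks (13.0%, Wilson 95% interval 12.3 to 13.8%) held the consensus. Peaks sharing at least 1 bp were merged, which gave 548 AP-1 sites nearest to 501 protein-coding genes. The members lay 1001 to 49974 bp from a start site, and the nearest peaks with the consensus outside these limits lay at 969 and 50144 bp.

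The libraries came from chromatin immunoprecipitation and sequencing of A549 lung, HCT116 colorectal, PC3 prostate and T47D breast cancer cells, all established lines. Every group had been exposed for 16 h to 0.5% oxygen, so no normoxic control entered any comparison. Chromatin of each line was precipitated with antibody PM14 against HIF-1α or PM9 against HIF-2α, in 2 replicate libraries each, which gave 8 groups. Each tissue was represented by 1 line, so a line and its tissue cannot be told apart, and 2 antibodies of unknown relative efficiency stood for the 2 isoforms.

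HIF-1α and HIF-2α are stabilised when oxygen falls, pair with HIF-1β, and bind the core ACGTG or GCGTG. AP-1 is a dimer of JUN and FOS family proteins that binds TGACTCA, accumulates at enhancers away from promoters and answers growth factor, phorbol ester and stress signals. AP-1 itself was not precipitated in these libraries, so the consensus is a description of sequence and not of AP-1 binding.

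The sequences below show the AP-1 consensus of sites named in the following paragraphs, together with the nearest HIF core where the window held one. They were read from the plus strand of GRCh37. Capitals mark the AP-1 consensus and the HIF core on either strand, whose complement reads CACGT or CACGC. The first 7 have both motifs apart, the next 3 have the consensus without a core in the window, and in the last 3 the motifs share letters.
ADM, chr11:10329688-10329746: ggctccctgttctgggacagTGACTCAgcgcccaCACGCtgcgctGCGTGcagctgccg
SEMA4B, chr15:90709072-90709137: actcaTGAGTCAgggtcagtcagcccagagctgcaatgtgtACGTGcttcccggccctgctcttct
KCMF1, chr2:85173682-85173785: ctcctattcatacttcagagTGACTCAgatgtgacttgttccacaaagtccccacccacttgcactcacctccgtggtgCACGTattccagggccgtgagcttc
BCL3, chr19:45245229-45245272: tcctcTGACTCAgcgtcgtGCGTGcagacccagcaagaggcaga
ANGPTL4, chr19:8427010-8427114: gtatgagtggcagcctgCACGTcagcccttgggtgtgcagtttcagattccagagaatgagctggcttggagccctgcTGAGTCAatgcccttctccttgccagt
CA12, chr15:63664731-63664771: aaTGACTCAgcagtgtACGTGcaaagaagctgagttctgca
VEGFA, chr6:43766748-43766817: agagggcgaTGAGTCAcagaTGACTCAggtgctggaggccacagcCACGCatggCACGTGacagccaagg
TRPM8, chr2:234883472-234883518: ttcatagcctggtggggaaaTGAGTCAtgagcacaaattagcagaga
EPHA2, chr1:16500132-16500178: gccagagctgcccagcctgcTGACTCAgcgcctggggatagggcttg
AXL, chr19:41729587-41729633: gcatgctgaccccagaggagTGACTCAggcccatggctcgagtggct
RAP2B, chr3:152878351-152878391: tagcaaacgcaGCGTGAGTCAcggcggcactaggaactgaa
RAP1GAP2, chr17:2853075-2853107: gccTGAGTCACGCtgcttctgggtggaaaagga
SLC8A1, chr2:40662154-40662203: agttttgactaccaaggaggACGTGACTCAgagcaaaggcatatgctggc

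Lists held between 272 and 4499 peaks, of which between 132 and 1098 were distal. They contain no read totals, so depth is unknown, sites without a listed peak cannot be called unbound, and the number of peaks alone sets the counting precision of shares. The Wilson intervals given here cover counting error only. The paper's methods speak of independent replicates, and p-values here measure the spread between those libraries. In the sign-flip tests that spread includes differences between lines. Cell identity could not be checked in peak lists. The share of peaks with the consensus was 2.65% (324 of 12232) within 1000 bp of a start site, 13.0% in the distal band and 16.7% (603 of 3618) beyond 50000 bp.

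The consensus was most frequent in the HIF-2α lists of A549 and PC3 and least frequent in T47D. In A549 it was present in 11.1% and 14.3% of distal HIF-1α peaks (replicates 2 and 3) and in 22.8% and 17.1% of distal HIF-2α peaks. In HCT116 the shares were 9.79% and 6.10% for HIF-1α and 11.3% and 12.7% for HIF-2α (replicates 2 and 3). In PC3 they were 11.8% and 16.8% for HIF-1α and 19.7% and 21.0% for HIF-2α (replicates 1 and 2). Both HIF-2α libraries lay above both HIF-1α libraries in each of these 3 lines. In T47D the shares were 5.03% and 3.87% for HIF-1α and 2.75% and 5.82% for HIF-2α, so the isoforms overlapped.

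**Figure D1:**
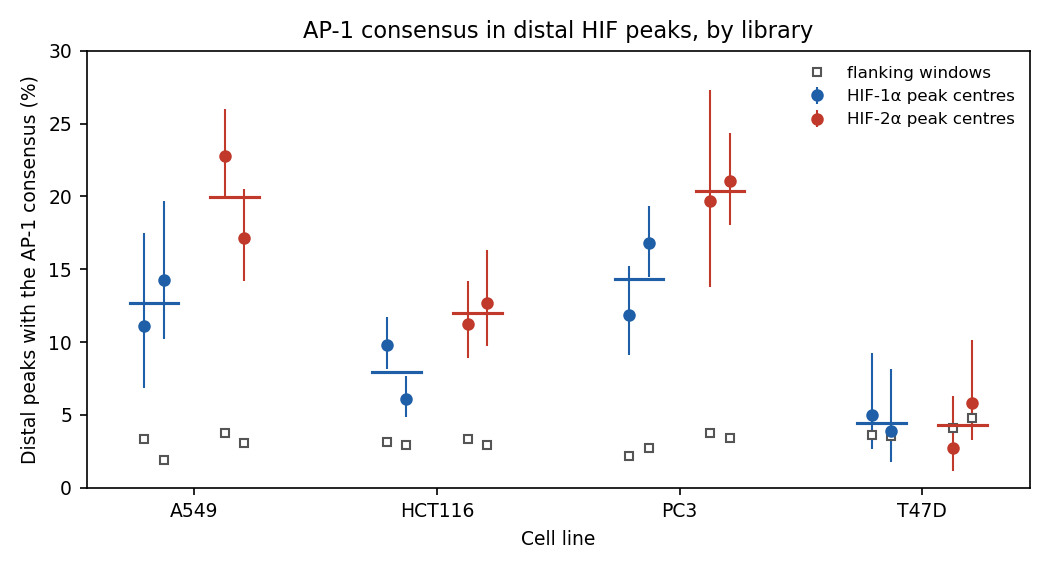
Percentage of distal peaks with the AP-1 consensus in the central 200 bp (filled circles, with Wilson 95% intervals), 1 point per library, against cell line. Horizontal bars are means of 2 libraries and open squares are the mean share of the 2 windows 5000 bp to either side. The circles stand above the squares in A549, HCT116 and PC3, and in T47D both lie between 2.75% and 5.82%.

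The shares were set against windows of the same length 5000 bp to either side of each peak, where 1.90% to 4.76% held the consensus. The centre exceeded the flanks by 8.71 ± 6.49 percentage points (mean ± SD over 16 libraries), in 15 of 16 libraries (exact sign-flip test, p = 0.000122, adjusted p = 0.0011). Replicates of a line share sites, so the 16 libraries are not independent units. With the 8 groups as units the call was kept. The excess averaged 14.3 points in PC3 (range 9.63 to 17.6 over 4 libraries), 13.3 points in A549 (7.78 to 19.1), 6.86 points in HCT116 (3.14 to 9.77) and 0.351 points in T47D (-1.37 to 1.397). For a 7-letter rearrangement of the same bases (ACTCAGT or ACTGAGT), read in the same windows, the centre minus the flanks was -0.256 points (exact sign-flip test, adjusted p = 0.49).

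Copy density was highest at the centre. Over A549, HCT116 and PC3, HIF-2α peaks held 1.11 AP-1 copies per kb in the 50 bp on the right of the centre and 0.147 copies per kb at 1025 bp. HIF-1α peaks of the same lines held 0.602 and 0.178 copies per kb at these positions. On the left side, at -1025 bp, the values were 0.221 for HIF-2α and 0.136 for HIF-1α. The HIF core ran the opposite way between isoforms, at 6.13 copies per kb beside the centre in HIF-1α peaks and 4.57 in HIF-2α peaks. T47D peaks had a central rise of the HIF core, to 7.66 copies per kb for HIF-1α and 6.04 for HIF-2α, with AP-1 at 0.120 and 0.162 copies per kb in the same bin and 0.240 and 0.270 in the bin to its left, and at 0.479 for HIF-1α 75 bp to the right. With 334 and 371 T47D peaks these bins are thinly filled.

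**Figure D2:**
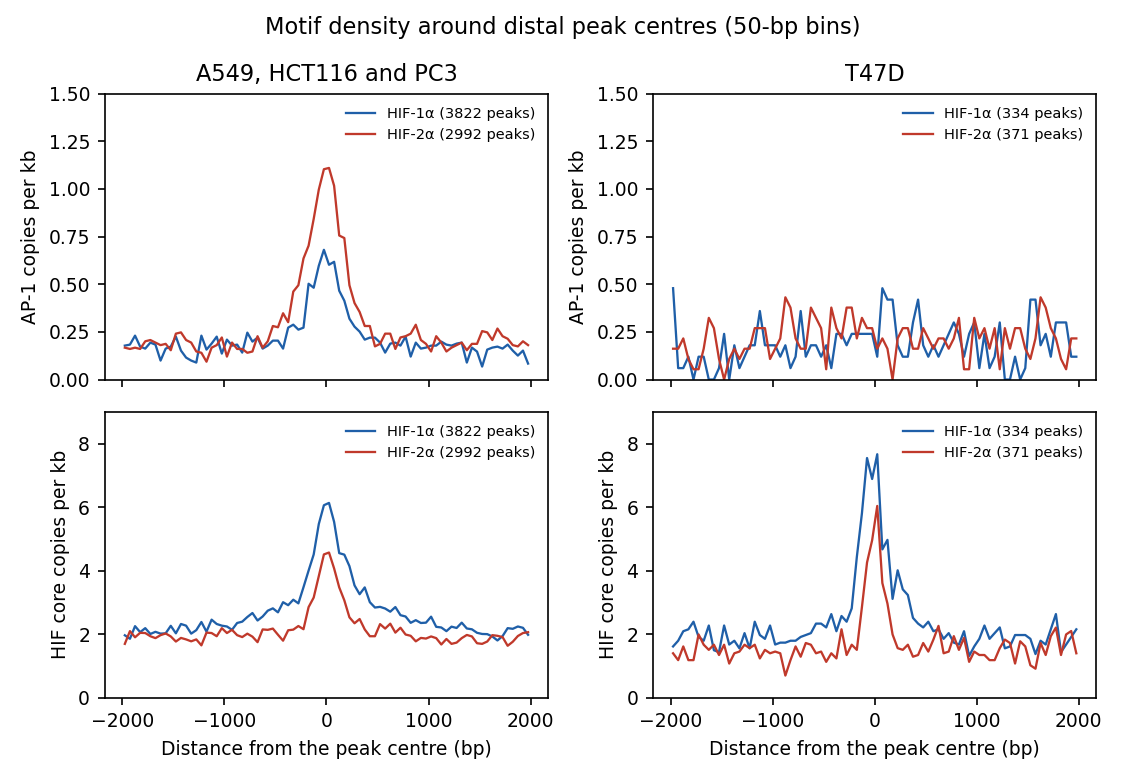
AP-1 copies per kb (top) and HIF core copies per kb (bottom) against distance from the centre of distal peaks in bp, in 50-bp bins, for HIF-1α (blue) and HIF-2α (red). In A549, HCT116 and PC3 together (left) AP-1 peaks at 1.11 copies per kb for HIF-2α and the core at 6.13 for HIF-1α, and in T47D (right) the core has a central maximum and AP-1 reaches at most 0.479 copies per kb.

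Between isoforms, the AP-1 share of distal peaks averaged 9.85% ± 4.57 (SD, n = 8) over the HIF-1α libraries and 14.1% ± 7.28 (SD, n = 8) over those of HIF-2α. The mean difference within lines was 4.29 points (A549 7.26, HCT116 4.03, PC3 6.06, T47D -0.166), larger than the spread between replicates by an exact permutation test of isoform labels within lines (p = 0.00772, adjusted p = 0.0174). The excess over the flanks differed by 3.58 points in the same direction (exact permutation test, p = 0.0201, adjusted p = 0.0301). The first call was lost with the whole peak as the window (3.89 points, exact permutation test, adjusted p = 0.403), the central 400 bp (5.74 points), peaks free of the other isoform (5.75 points), or without A549 (3.31 points), HCT116 (4.38 points) or PC3 (3.71 points). The second was lost in 8 of the 16 fits that left out 1 library, with values from 2.95 to 4.20.

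The number of AP-1 peaks varied with the length of the lists, which held 345 distal HIF-1α and 1273 distal HIF-2α peaks in A549 and 2140 and 945 in HCT116 (sums over both libraries). HIF-2α libraries of A549 held 165 and 94 and its HIF-1α libraries 15 and 30. In HCT116 the HIF-1α libraries held 102 and 67 and the HIF-2α libraries 62 and 50. In PC3 the HIF-1α libraries held 51 and 152 and the HIF-2α libraries 26 and 135, a range within each isoform that was wider than the distance between them. T47D had 9 and 6 for HIF-1α and 5 and 11 for HIF-2α. Over lines, HIF-2α libraries had 1.28 times as many (geometric mean, exact permutation test, p = 0.508, adjusted p = 0.508). With equal numbers of best-scoring peaks HIF-2α exceeded HIF-1α by 0.372 log10 units (exact permutation test, adjusted p = 0.00694). These were the 272 best peaks of each list at any distance, so the numbers of distal peaks were not made equal. Distal peaks made up 43.1% to 52.4% of the whole HIF-2α lists and 21.8% to 35.5% of the HIF-1α lists. The part of this in the difference was not tested.

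Cell lines differed more than replicates did. The variance of the AP-1 share between lines, with the isoforms kept apart, was 78.4 squared percentage points (one-sided exact permutation test, p = 0.00263, adjusted p = 0.00926). It was 33.3 without T47D (exact permutation test, adjusted p = 0.0857), and 112 without HCT116 (adjusted p = 0.0533).

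The isoforms were also compared at distal sites found in both replicates of a group, split by whether each isoform held them. In HCT116 the consensus lay at the centre of 26 of 432 sites held by HIF-1α alone (6.02%, interval 4.14 to 8.67%), of 14 of 65 held by HIF-2α alone (21.5%, 13.3 to 33.0%) and of 15 of 79 held by both (18.99%, 11.9 to 29.0%). In A549 it lay in 2 of 29 HIF-1α sites, 67 of 354 HIF-2α sites (18.9%) and 7 of 62 shared sites. In PC3 it lay in 33 of 252 HIF-1α sites (13.1%), 8 of 33 HIF-2α sites (24.2%) and 7 of 51 shared sites. In T47D the counts were 2 of 71, 1 of 55 and 1 of 39. Sites are not replicates, and no test was made over them.

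**Figure D3:**
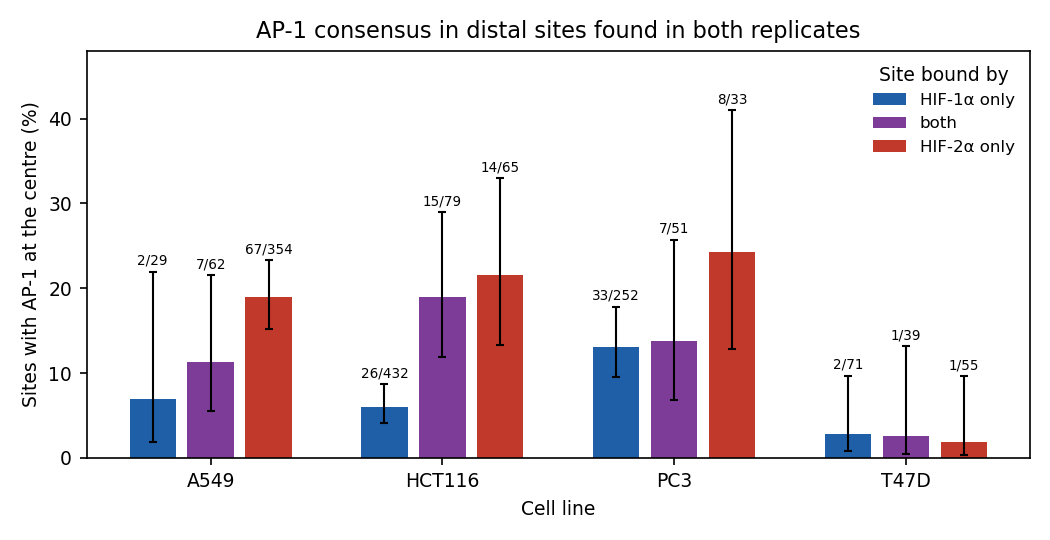
Percentage of distal sites with the AP-1 consensus at the centre, by cell line and by the isoform that held the site in both replicates, with Wilson 95% intervals and counts above the bars. The interval of sites held by HIF-2α alone lies above that of sites held by HIF-1α alone in HCT116, and these intervals overlap in A549, PC3 and T47D.

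The HIF core was present in 61.2% of AP-1 peaks, in 56.0% of the other distal peaks and in 27.5% of flanking windows. Among flanking windows that held the AP-1 consensus, 28.0% (133 of 475) also held the core. The share in AP-1 peaks exceeded that in the other distal peaks of the same library by 6.78 ± 10.1 points (mean ± SD), in 12 of 16 libraries (exact sign-flip test, p = 0.0182, adjusted p = 0.0301). In HCT116 the difference was positive in 4 of 4 libraries, with a mean of 14.2 points (5.58 to 20.2). It averaged 4.10 points over the A549 libraries (3 of 4 positive), 3.94 over PC3 (3 of 4) and 4.89 over T47D (2 of 4). With the 8 groups as units the adjusted p of the exact test was 0.121, and with equal numbers of best-scoring peaks the difference turned to -2.77 points.

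Within the AP-1 peaks the core was more frequent under HIF-1α than under HIF-2α. In A549 it was present in 11 of 15 and 23 of 30 HIF-1α peaks, and in 88 of 165 and 63 of 94 HIF-2α peaks. In HCT116 the shares were 75.5% and 71.6% for HIF-1α and 53.2% and 56.0% for HIF-2α. In PC3 they were 66.7% and 63.8% against 65.4% and 44.4%, and in T47D, with 5 to 11 AP-1 peaks a library, 7 of 9 and 5 of 6 against 2 of 5 and 7 of 11. All HIF-1α libraries were above the HIF-2α libraries in A549, HCT116 and T47D, and the PC3 libraries overlapped. The HIF-1α libraries averaged 73.6% ± 6.24 and those of HIF-2α 55.4% ± 9.78 (SD, n = 8 each), a difference of -18.2 points (exact permutation test, p = 0.00309, adjusted p = 0.00926). The other distal peaks had 62.4% ± 6.45 and 53.0% ± 8.08, and whether the isoform difference was larger in AP-1 peaks was not tested. The call was lost with stricter peaks, narrower or wider windows and ACGTG alone. With scores at or above the median of all peaks the difference was -5.41 points (exact permutation test, adjusted p = 0.526), with equal numbers of best-scoring peaks 5.02 points, and in the central 100 bp -2.30 points (adjusted p = 0.872). In the central 400 bp it was -7.03 points and with ACGTG alone -14.1 points (exact permutation tests, adjusted p = 0.0813 and 0.0556).

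**Figure D4:**
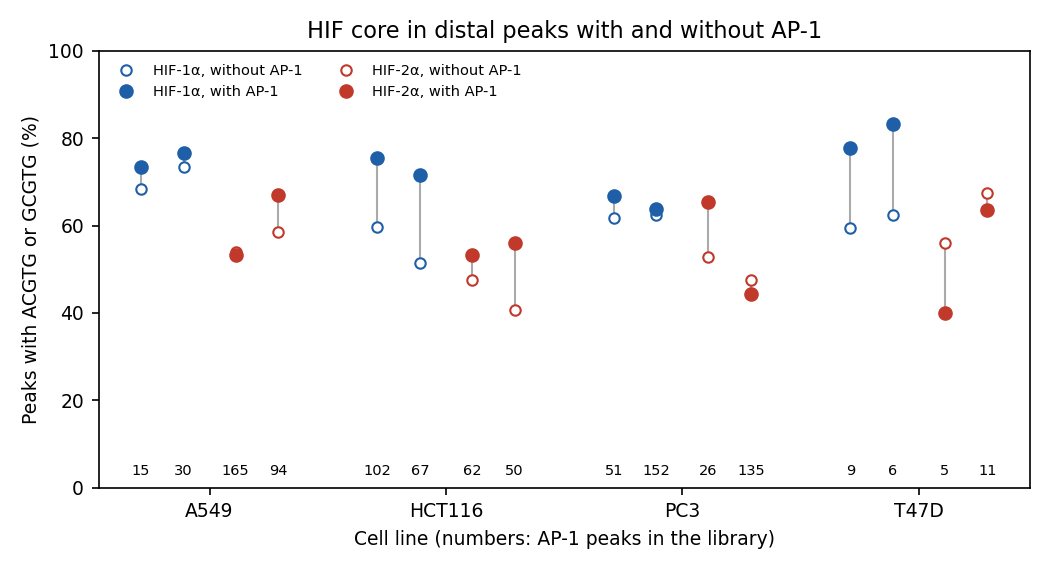
Percentage of distal peaks with ACGTG or GCGTG in the central 200 bp, 1 pair of points per library, for peaks with the AP-1 consensus (filled) and without it (open), with the number of AP-1 peaks at the foot. Filled blue points (HIF-1α) lie between 63.8% and 83.3% and filled red points (HIF-2α) at 67.0% or below.

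Where a site had several member peaks, its best-ranked one was used for motif positions. By that window 284 of 548 sites (51.8%) held a HIF core, and 307 (56.0%) did in at least 1 member peak. The 2 motifs shared letters at 25 of the 284 sites, were separated by 0 to 9 bp at 44, by 10 to 19 bp at 32, by 20 to 49 bp at 83, by 50 to 99 bp at 67 and by 100 bp or more at 33. For named sites the smallest gap in any member peak, not only the best-ranked one, is given. It was 7 bp at the sites of adrenomedullin, BCL3 and CA12, 52 bp at KCMF1 and 56 bp at ANGPTL4.

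Shared letters arose in 4 forms, in which the TG of the core was the first pair of letters of the consensus. GCGTGAGTCA was found at 10 sites, ACGTGACTCA at 8, GCGTGACTCA at 5 and ACGTGAGTCA at 2. RAP2B and RAP1GAP2 (a small GTPase and a GTPase-activating protein) and SLC8A1 (the sodium-calcium exchanger) had such composites. At SLC8A1 the 1 HIF-1α peak and both HIF-2α peaks of PC3 were members, with scores of 88.2, 65.9 and 154. At 4 of the 10 sites with GCGTGAGTCA and at none of the other composites the shared letters were followed by CTGTAAT, letters familiar from Alu repeats. CTGTAAT or its complement was present in 2.86% of AP-1 peaks and 2.77% of the other distal peaks, and in 12.4% of flanking windows with the consensus. Reads from repeats are placed less surely than others, and the part of this in those 4 sites was not tested.

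Most sites held a single copy: 489 of 548 had 1, 51 had 2, 4 had 3 and the other 4 had more. Copies in member peaks lay 0 to 97 bp from the centre with a median of 48 bp. The consensus was extended to TGACTCAGC or TGAGTCAGC, an antioxidant response element with an AP-1 core as bound by NRF2, at 118 sites (21.5%). Among peaks the share was 21.5% (211 of 980, interval 19.1 to 24.2%), against 16.6% (79 of 475, 13.6 to 20.2%) of flanking windows with the consensus. By line it was 17.8% for A549, 20.6% for HCT116, 23.9% for PC3 and 38.7% (12 of 31) for T47D. Of 618 copies, 33 (5.34%) were preceded by A and followed by T. An A before or a T after a copy was found at 281 of 1244 copy ends (22.6%), and no background was computed.

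Of the words of other enhancer factors, GGAATG of the TEAD factors was found in 19.9% of AP-1 peaks and 15.6% of the other distal peaks. It was present in 22.8% against 11.3% in HCT116 and in 21.7% against 21.8% in A549. In PC3 the shares were 15.7% against 17.7%, and in T47D 25.8% against 16.3%. AGATAA of the GATA factors was found in 8.06% against 6.27%, and TGTGGTT of the RUNX factors in 4.69% against 3.72%. TGTTTAC of the FOX factors was at 2.65% against 2.83% and CCGGAA of the ETS factors at 5.31% against 5.99%. Each of these 5 words was more frequent in AP-1 peaks in 5 to 8 of 16 libraries. The cyclic AMP response element TGACGTCA was found in 0.816% of AP-1 peaks and 0.398% of the others, and it was more frequent in AP-1 peaks in 4 of 16 libraries, with a mean difference within libraries of -0.0109 points.

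AP-1 peaks ranked much like other distal peaks of their library. Their mean score percentile exceeded that of the others by 2.41 ± 7.17 points (12 of 16 libraries, exact sign-flip test, p = 0.198, adjusted p = 0.223), with 10.9 points in HCT116 (4 of 4 libraries) and -4.89 in T47D (2 of 4 above 0). The share with an overlapping peak in the other replicate was 9.07 ± 16.8 points higher (11 of 16 libraries, exact sign-flip test, p = 0.0472, adjusted p = 0.0607). In HCT116 that share was 47.1% and 76.1% for HIF-1α AP-1 peaks and 45.2% and 68.0% for HIF-2α AP-1 peaks, against 23.5% to 44.04% of other peaks. In PC3 the 2 lists of each isoform were unequal in length, and the HIF-2α values were 84.6% and 11.9%. Both differences passed the threshold without T47D, at 4.84 points (exact sign-flip test, adjusted p = 0.0237) and 13.6 points (adjusted p = 0.0167).

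Peaks overlapped a site in 1 line at 368 sites (67.2%), in 2 at 111, in 3 at 57 and in 4 at 12. With all distal peaks merged first, so that sites with and without the consensus at their centre were formed alike, 75.6% of 430 sites with it and 83.3% of 3770 without it had peaks in 1 line. The number of libraries with a peak ranged from 1 to 16 with a median of 2, and 248 sites (45.3%) had a peak in 1 library only. By isoform, 139 sites had HIF-1α peaks only, 229 HIF-2α peaks only and 180 both. The lists held 4156 distal HIF-1α and 3363 distal HIF-2α peaks, 432 and 548 of them with the consensus. The same split was not made for distal sites without the consensus, so these counts show no preference of AP-1 sites. Sites lay in introns (301), between genes (233), in untranslated exons (9) or in coding exons (5), and 268 (48.9%) were upstream of the nearest start.

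Both replicates of at least 1 group had a peak at 237 sites (43.2%). In the merge of all distal peaks the share was 32.1% of sites with the consensus and 25.9% of sites without it, and among these held sites 74.6% and 76.0% were held in 1 line. No test was made over sites. In A549 131 sites were so held, 127 by HIF-2α and 23 by HIF-1α, with 19 by both. In HCT116 101 were held, 77 by HIF-1α and 51 by HIF-2α, with 27 by both. In PC3 the numbers were 89 in all, 77 for HIF-1α, 31 for HIF-2α and 19 for both. T47D held 14, of which 12 were held by HIF-1α, 5 by HIF-2α and 3 by both. In the merge of all distal peaks, A549 had 354 sites held by HIF-2α alone, 29 by HIF-1α alone and 62 by both. In that order HCT116 had 65, 432 and 79, PC3 33, 252 and 51, and T47D 55, 71 and 39. Whether the split of AP-1 sites departed from these was not tested. AP-1 sites held in 1 line only made up 61.8% of those of A549, 44.6% of HCT116, 43.8% of PC3 and 21.4% of T47D.

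Sites with peaks in most libraries included those near ADM, SEMA4B, KCMF1, QSOX1, BCL3, DNM2 and PADI3. The ADM site, 2736 bp downstream of the start of the gene for adrenomedullin, a vasodilator peptide, had a peak in 15 libraries. The scores were 163 and 502 for HIF-1α and 1262 and 837 for HIF-2α in A549, and 1230 and 683 for HIF-1α and 500 and 442 for HIF-2α in HCT116. They were 415 and 678 for HIF-1α and 162 and 357 for HIF-2α in PC3, and in T47D 100 and 97.7 for HIF-1α and 60.4 for HIF-2α replicate 2, with no peak in replicate 1. The scores depend on depth, so they order libraries only loosely. As percentiles within a list, both HIF-2α libraries were above both HIF-1α libraries in A549 (98.9 and 98.4 against 82.2 and 94.7). In HCT116 the isoforms overlapped (98.6 and 98.9 against 99.03 and 98.4). Only 7 of the 15 ADM peaks had the consensus in their own centre, among them both A549 HIF-1α peaks and neither A549 HIF-2α peak.

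The intronic SEMA4B site, in a gene for a membrane semaphorin, was the site with most member libraries (11 of the 15 with a peak). Its scores were highest for HIF-2α in A549, at 1760 and 1074 against 198 and 266 for HIF-1α. In PC3 they were 184 and 784 for HIF-2α and 156 and 477 for HIF-1α, which overlapped, and in HCT116 223 and 211 against 640 and 294. As percentiles within a list the isoforms overlapped in HCT116 too, at 94.8 and 95.1 for HIF-2α and 97.6 and 94.97 for HIF-1α. T47D HIF-1α had 64.8 and 58.4 and HIF-2α replicate 2 had 172. The site 24476 bp upstream of KCMF1, a ubiquitin ligase gene, had peaks in all 12 libraries of A549, HCT116 and PC3 and none in T47D. Its scores were between 93.7 (PC3 HIF-2α replicate 1) and 1043 (HCT116 HIF-1α replicate 2).

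Other widely occupied sites had their own patterns. QSOX1, a sulfhydryl oxidase gene, had an intronic site with peaks in 8 of 8 HIF-1α libraries and 4 of 8 HIF-2α libraries. Both T47D HIF-1α libraries had it, at 300 and 214. Of its 12 peaks 6 had the consensus in their own centre, and neither T47D peak did. The site 6787 bp upstream of BCL3, an IκB family gene, scored 934 and 719 in A549 HIF-2α and at most 303 in the other 10 libraries with a peak. Of its 12 peaks 8 had the consensus in their own centre, and neither A549 HIF-2α peak did. DNM2 (the endocytic GTPase dynamin 2) and PADI3 (a peptidylarginine deiminase) each had peaks in 11 libraries and none in T47D. At the widest site, upstream of MRPL45, all 16 libraries had a peak and only 1 peak had the consensus in its centre, and the same was true of 1 of 12 peaks at the site 4010 bp upstream of SLC2A1, so those sites were members through 1 library each.

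**Figure D5:**
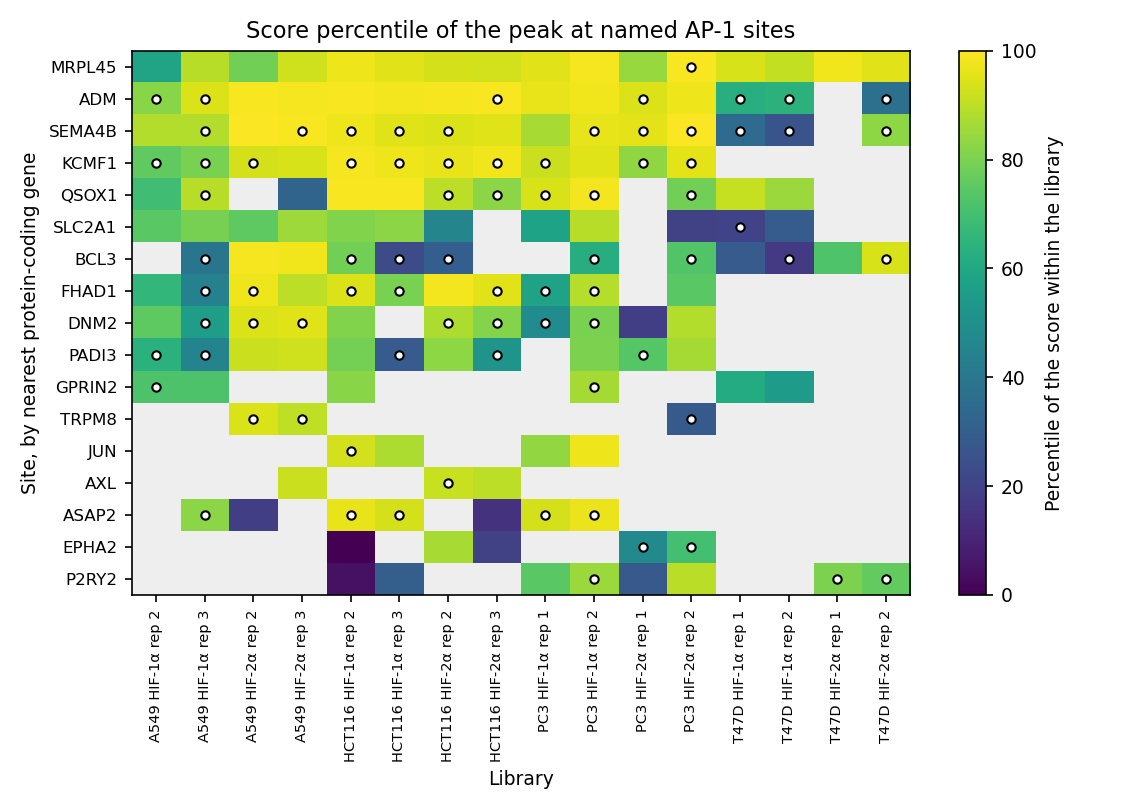
Score percentile within each library (colour, 0 to 100) of the peak at AP-1 sites, named by nearest gene (rows) in the 16 libraries (columns). Grey means no peak and white circles mark peaks whose own centre held the consensus. ADM and SEMA4B have peaks in 15 libraries, and TRPM8 in 3 HIF-2α libraries only.

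Some sites had peaks of 1 isoform only within a line, and the best-ranked of each group are given here. TRPM8, the cold and menthol channel, had an intronic site with scores of 555 and 328 in A549 HIF-2α and 58.5 in PC3 HIF-2α replicate 2, and no HIF-1α peak. The AXL site, near a receptor tyrosine kinase gene, scored 162 and 143 in HCT116 HIF-2α and 364 in A549 HIF-2α replicate 3. The EPHA2 site, near an ephrin receptor gene, scored 56.6 and 92.6 in PC3 HIF-2α, with HCT116 peaks at 122 and 52.8 for HIF-2α and 50.1 for HIF-1α replicate 2. No member peak of these 3 sites held a HIF core in its window. In T47D the P2RY2 site, near a nucleotide receptor gene, scored 117 and 124 for HIF-2α and had no HIF-1α peak. In HCT116 it was the reverse, with HIF-1α peaks at 51.3 and 61.8, near the lowest listed score, and no HIF-2α peak. In PC3 both isoforms had peaks there, at 96.6 and 174 for HIF-1α and 53.1 and 172 for HIF-2α. The P2RY2 window of T47D HIF-2α replicate 2 held 2 HIF cores, and the best-ranked member window held none. The sites named here for a HIF-2α group of 1 line were thus with and without a core, and no test was made over them. At AXL 1 of the 3 peaks had the consensus in its own centre.

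On the HIF-1α side, the JUN site 28448 bp downstream of its start scored 287 and 167 in HCT116 and 137 and 609 in PC3 and had no HIF-2α peak, and 1 of its 4 peaks had the consensus in its own centre. ASAP2, a gene for an ARF GTPase-activating protein, had a site with scores of 259 and 582 in PC3 HIF-1α, 530 and 249 in HCT116 HIF-1α, and at most 59.3 in 2 HIF-2α libraries. The GPRIN2 site had peaks in 6 HIF-1α libraries, at 82.0 to 188, and in no HIF-2α library, and 2 of its 6 peaks had the consensus in their own centre. The best-ranked window held a HIF core at JUN but not at ASAP2 or GPRIN2. At those sites a core lay in the window of another member peak.

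Among genes by role, AP-1 sites were nearest to 501 of 20136 protein-coding genes (2.49%), and distal sites without the consensus to 14.7%. Of the 48 common HIF targets named in the study, 47 were found in the annotation and 7 had an AP-1 site (14.9%), ADM, ANGPTL4, BHLHE40, LDHA, NDRG1, SEMA4B and SLC2A1, while 21 (44.7%) had another distal site. The study drew that list from its own binding and expression data, so it is not independent evidence. Of 25 further textbook HIF targets 5 had an AP-1 site, among them CA12, HMOX1, TGFA and VEGFA, and 12 another distal site. Of 36 textbook AP-1 targets 8 had one (22.2%), among them DUSP5, DUSP6, EGFR, EREG, HBEGF, HMOX1 and VEGFA, and 15 another distal site. Of 14 genes of AP-1 subunits 2 had one, FOSL2 and JUN, and 7 another distal site. The NRF2 target list had 6 of 31 (ABCC3, GCLC, HMOX1, OSGIN1, TKT and TXNRD1) and the YAP and TEAD target list 3 of 24 (AXL, MYOF and NT5E). All 6 lists had a larger share than 2.49%, and each also had a larger share than 14.7% for the other distal sites. The lists share members, and no test was made over genes.

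Among HIF targets, ANGPTL4, an inhibitor of lipoprotein lipase, had its site 1075 bp upstream, with scores of 212 and 186 in HCT116 HIF-1α and 81.7 and 50.6 in HCT116 HIF-2α. In A549 it scored 137 and 105.4 for HIF-2α with no HIF-1α peak, and in PC3 67.7 and 149 for HIF-1α and 95.4 for HIF-2α replicate 2. The intronic site of SLC2A1, the glucose transporter GLUT1, was held by HIF-2α in 3 lines, at 205 and 170 in A549, 54.4 and 53.9 in HCT116, and 114 and 228 in PC3. HIF-1α peaks there were listed in PC3 only, at 52.7 and 152. The PC3 scores of the isoforms overlapped, while as percentiles within a list HIF-2α (87.7 and 93.9) was above HIF-1α (9.73 and 81.2). The HCT116 scores were near the lowest listed score of 50. CA12, a membrane carbonic anhydrase, scored 456 and 268 in A549 HIF-2α, 75.9 in A549 HIF-1α replicate 3, 87.2 and 56.5 in HCT116 HIF-1α, and 84.9 and 102 in PC3 HIF-1α. The VEGFA site, 24633 bp downstream of the start of the angiogenic growth factor gene, had 2 AP-1 copies and 3 HIF cores in its window. It scored 174 and 89.7 in HCT116 HIF-1α and 58.9 in PC3 HIF-1α replicate 2, with no HIF-2α peak. BHLHE40, a hypoxia-induced transcriptional repressor, had a site 44067 bp downstream that scored 305 and 247 in A549 HIF-2α and at most 63.2 in 3 further libraries. TGFA, a ligand of the epidermal growth factor receptor, had one that scored 63.6 and 56.8 in HCT116 HIF-2α, 108 in PC3 HIF-2α replicate 2 and 53.95 in PC3 HIF-1α replicate 2.

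Among AP-1 targets, HBEGF, an epidermal growth factor receptor ligand, had an intronic site with scores of 100 and 273 in PC3 HIF-1α and 67.4 in HCT116 HIF-1α replicate 3. EGFR, the receptor, had a pair of intronic sites, each held by A549 HIF-2α, at 169 and 87.1 and at 72.9 and 56.4, and the first also had a peak of HCT116 HIF-1α replicate 2 at 68.8. The FOSL2 site scored 198 and 139 in HCT116 HIF-1α and 59.9 in HCT116 HIF-2α replicate 2.

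The NRF2 targets HMOX1 (haem oxygenase 1), GCLC (the glutathione-producing glutamate-cysteine ligase) and TXNRD1 (thioredoxin reductase 1) had sites held by A549 HIF-2α alone. The scores in A549 HIF-2α were 106 and 51.0 at HMOX1, 127 and 96.3 at GCLC and 199 and 51.7 at TXNRD1. At HMOX1 the other peak was PC3 HIF-1α replicate 2, at 51.9, and at TXNRD1 PC3 HIF-1α replicate 2 scored 55.5 and PC3 HIF-2α replicate 2 scored 200. Only the PC3 peaks at TXNRD1 had the consensus in their own centre, while at GCLC 1 of the 2 A549 peaks did. The lowest score in each list is near 50, so several of these peaks were close to the caller's limit.

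A gene could be nearest to several sites. LIF, a cytokine of the interleukin-6 family, and PRKAG2, a regulatory subunit of AMP-activated kinase, had 4 each, and GADD45B and GALNT2 were among those with 3. Peaks at the LIF sites were found in 5, 1, 7 and 1 libraries and those at the PRKAG2 sites in 1, 4, 1 and 8, from A549, HCT116 and PC3 in both cases. All 3 GALNT2 sites had HIF-2α peaks of A549 only, in 2, 1 and 1 libraries. In all, 39 genes had 2 or more AP-1 sites.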

How the data were processed

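ChIP-seq peak lists of HIF-1α and HIF-2α in A549, HCT116, PC3 and T47D cells were used, 1 list per library and 2 libraries for each of the 8 groups given by the labels. The authors trimmed reads with Trim Galore 0.3.3, aligned them to GRCh37 with BWA 0.7.5a-r405, filtered them with SAMtools 0.1.19, bedtools 2.17.0 and Picard 2.0.1, and called peaks in each library with MACS in control mode. The MACS version and the control are not given in the sources used here. The deposited score of a peak is the caller's own, on a scale that is not stated. It served for ranking, filtering and description. The lists give no summit, so the midpoint stood for it. The study's later filters (a second caller, read counts, replicate overlap and HIF-1β) were not applied in these lists.

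Start sites came from GENCODE release 44 mapped to GRCh37. Motifs were searched on both strands. Sequences were read with pysam 0.24.0, statistics computed in Python 3.11.15 (numpy 2.4.6, scipy 1.17.1) by functions tested on simulated data, and plots drawn with matplotlib 3.10.9. Isoforms were compared by exchanging labels within lines in all 1296 ways, libraries by sign flips, and lines by all splits into pairs (105 for each isoform). Benjamini-Hochberg adjustment covered the 9 exact tests, and adjusted p-values under 0.05 were called. A site was occupied where any peak of a library overlapped it and held where both replicates did, and its gene was the protein-coding gene with the nearest start.

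Named were the 10 sites with peaks in most libraries, the best-ranked site of each group without the other isoform, at most 6 sites of each gene list, the 5 with the closest motifs and the 5 genes with most sites. The members and the gene lists were chosen with earlier results of these data known. Some named genes and sequences are not reported here.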

Additional observations from a re-analysis of the deposited data

Results flagged for a closer look

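The isoforms moved in opposite directions in 2 lines in the number of AP-1 peaks. HIF-2α libraries held 5.76 times as many as HIF-1α libraries in A549 (94 and 165 against 15 and 30) and 0.663 times as many in HCT116 (50 and 62 against 67 and 102). The ranges did not overlap in either line. The lists differed in the same way, with 1273 distal HIF-2α and 345 distal HIF-1α peaks in A549 and 945 and 2140 in HCT116, and the AP-1 share was higher under HIF-2α in both lines, by 7.26 and 4.03 points. The part of list length was not tested, and the difference between lines was not tested.

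The excess of the consensus at centres over flanks differed between cell lines. Its variance between lines was 89.1 squared percentage points (one-sided exact permutation test, p = 0.00209, adjusted p = 0.00926), with T47D at 0.351 points and the other lines at 6.86 to 14.3 points. T47D also had the fewest AP-1 peaks (5 to 11 a library), and its lists held 422 to 761 peaks, within the range of the other lists. Why T47D differed was not tested.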

How the results depend on the processing

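Of 283 alternative values, 213 kept the direction and the side of the threshold, and the centre excess did so under every alternative but the rearranged word (-0.256 points). Values below are in the order of the settings named, and the cause of a change was not tested. The isoform difference in share was not called with central 400 bp (5.74), the whole peak (3.89), peaks free of the other isoform (5.75), or without A549 (3.31), HCT116 (4.38) or PC3 (3.71). The isoform difference in excess was not called with scores at or above the median (3.67), equal numbers of peaks (3.58), central 100 bp (2.63) or 400 bp (4.93), 5000 to 50000 bp (3.89), the rearranged word (0.625), peaks without the other isoform (5.38), or without A549 (2.61), HCT116 (3.45) or PC3 (3.13). The core difference between AP-1 and other peaks was not called with scores at or above the median (1.41), central 100 bp (4.11) or 400 bp (3.55), ACGTG alone (4.09), the 8 groups as units (6.78), or without A549 (7.68), HCT116 (4.31) or PC3 (7.73), and reversed with equal numbers (-2.77) and peaks without the other isoform (-1.56).

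The isoform difference in the core share of AP-1 peaks was not called with scores at or above the median (-5.41), central 100 bp (-2.30) or 400 bp (-7.03) or ACGTG alone (-14.1), and reversed with equal numbers (5.02). The number of AP-1 peaks by isoform was called with equal numbers of peaks at any distance (0.372 on the log10 scale). It reversed with the whole peak (-0.0105) and without A549 (-0.113). The variance between lines was not called without HCT116 (112) or T47D (33.3). The score difference was called with the whole peak (7.61), all peaks over 1000 bp from a start (6.14), start sites of all transcripts (6.32) and without T47D (4.84), and reversed with scores at or above the median (-1.92, adjusted p of the exact test 0.0495), equal numbers (-2.06), central 100 bp (-2.41) and without HCT116 (-0.436). The replicate share difference was called with the whole peak (12.6), all peaks over 1000 bp from a start (14.8), 1 start per gene (10.4), all transcripts (14.2), a reciprocal overlap of 50% (9.33) and without T47D (13.6), and reversed with equal numbers (-6.66).

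Leaving out 1 library gave 0.0178 to 0.197 for the number of peaks (log10), 3.59 to 5.00 for the isoform share, 8.02 to 9.38 for the centre excess, 2.95 to 4.20 for the isoform excess, 68.9 to 91.4 for the variance between lines, 5.84 to 8.30 for the core difference, -21.2 to -15.3 for the core share by isoform, 1.68 to 3.39 for the score and 6.18 to 12.8 for the replicate share. Calls were lost for the isoform excess without A549 HIF-1α replicate 2 (3.0001) or HIF-2α replicate 2 (2.95), HCT116 HIF-1α replicate 3 (3.14) or HIF-2α replicate 3 (3.34), PC3 HIF-1α replicate 1 (3.02) or HIF-2α replicates 1 (3.79) or 2 (3.36), or T47D HIF-2α replicate 2 (3.27). They were lost for the variance between lines without HCT116 HIF-2α replicates 2 (77.5) or 3 (79.6), and for the core difference without HCT116 HIF-1α replicates 2 (6.19) or 3 (5.89) or HIF-2α replicate 3 (6.22), or T47D HIF-1α replicates 1 (6.01) or 2 (5.84). The replicate share was called without either T47D HIF-2α library (12.8).

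Same-numbered libraries did not deviate together in occupancy of distal sites (correlations of -0.0985 to 0.0517). With 2 replicates per group this cannot exclude that the numbers pair the samples. In PC3 both replicate 1 lists were the shorter (1516 and 272 peaks against 3411 and 1288), and in HCT116 both replicate 2 lists were the longer. In A549 and T47D the order of lengths differed between isoforms. With a replicate block the isoform difference in excess was 3.58 with an adjusted p of 0.0703. Further alternatives were added after the data were seen: the excess in place of the share between lines, and leaving out peaks with CTGTAAT, which gave isoform differences of 4.22 in share and -16.7 in core share. Depth is unknown, peaks are wide and without summits, and a consensus match does not show binding, which limits every value above.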
